A study of Homo sapiens with 12 samples.

Results

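Matrix metalloproteinases (MMPs) were followed across human adipocytes with and without knockdown of linc-ADAIN, a long non-coding RNA enriched in adipose tissue. Both kinds were followed with and without bacterial lipopolysaccharide (LPS). The set held 10 MMP genes of 28901 named genes in the count table, chosen by gene symbol: MMP1, MMP2, MMP3, MMP8, MMP10, MMP11, MMP12, MMP13, MMP14 and MMP19. Poly(A) RNA was sequenced from 12 libraries of ASC52telo hTERT, an adipose-derived mesenchymal stem cell line immortalised with telomerase, at day 14 of adipocyte differentiation. The 4 groups of 3 libraries were scramble shRNA, scramble shRNA with LPS at 100 ng/mL for 4 h, linc-ADAIN shRNA, and linc-ADAIN shRNA with the same LPS treatment. linc-ADAIN shRNA is called KD (knockdown) here.

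All groups carried a lentiviral shRNA vector with the ZsGreen reporter and had been sorted for ZsGreen-positive cells. All were differentiated with insulin, dexamethasone, isobutylmethylxanthine and rosiglitazone and then kept in insulin and dexamethasone. The cells came from a single immortalised line with 1 hairpin per arm, and per the study's legends the RNA sequencing was a single experiment with triplicate libraries. The n and SD given below therefore count libraries of that experiment, and p-values measure the spread between them and not that between independent experiments. The transcript targeted by the hairpin, linc-ADAIN, was not analysed here. In bulk RNA, a change in the number of cells of a type cannot be told apart from a change in RNA per cell.

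MMPs are zinc-dependent endopeptidases that cut collagens, other matrix proteins and many cell-surface and secreted proteins. Most are secreted as inactive proenzymes whose propeptide has to be removed, for example by plasmin, by another MMP or by furin, and the active enzymes are held in check by tissue inhibitors of metalloproteinases (TIMPs) and other inhibitors. In adipose tissue they take part in the remodelling of the collagen around preadipocytes and growing adipocytes, in which the membrane-anchored MMP14 has a known role, and several secreted members are classic targets of inflammatory signalling in fibroblasts.

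The genes for 6 of the 10 members lay in a run of 9 MMP genes on chromosome 11 (GRCh38, GENCODE 44, chr11:102520508-102955732, 435 kb). All 9 genes of the run were on the minus strand, in the order MMP7, MMP20, MMP27, MMP8, MMP10, MMP1, MMP3, MMP12 and MMP13. MMP8 spanned chr11:102711796-102727050, MMP10 chr11:102770502-102780628, MMP1 chr11:102789401-102798160, MMP3 chr11:102835801-102843609, MMP12 chr11:102862736-102874982 and MMP13 chr11:102942995-102955732. The other 4 were scattered, with MMP2 at chr16:55389700-55506691 on the plus strand, MMP14 at chr14:22836560-22849041 on the plus strand, MMP11 at chr22:23768226-23784316 on the plus strand and MMP19 at chr12:55835433-55842966 on the minus strand.

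Promoter sequences from RefSeq (GRCh38.p14) were matched for 4 of the 10 members, MMP8, MMP10, MMP11 and MMP14. Those of MMP10 and MMP8 are shown because both genes lie in the chromosome 11 run, and that of MMP14 because it lies outside it. Each reads 5′ to 3′ along the gene's strand from position -250 before the start, with bases of annotated exons left out. The window of MMP10 is chr11:102780629-102780878 (minus strand), that of MMP8 chr11:102725004-102725204 (minus strand), and that of MMP14 chr14:22836335-22836559 (plus strand). Capitals mark the matches of the motifs searched.
MMP10: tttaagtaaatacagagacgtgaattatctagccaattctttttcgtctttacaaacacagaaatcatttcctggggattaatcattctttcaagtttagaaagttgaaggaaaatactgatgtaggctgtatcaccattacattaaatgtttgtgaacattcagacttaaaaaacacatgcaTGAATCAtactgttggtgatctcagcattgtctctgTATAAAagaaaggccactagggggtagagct
MMP8: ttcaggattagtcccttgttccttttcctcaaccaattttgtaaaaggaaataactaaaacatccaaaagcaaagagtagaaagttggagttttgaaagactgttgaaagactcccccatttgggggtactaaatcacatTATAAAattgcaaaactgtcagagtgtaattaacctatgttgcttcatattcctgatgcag
MMP14: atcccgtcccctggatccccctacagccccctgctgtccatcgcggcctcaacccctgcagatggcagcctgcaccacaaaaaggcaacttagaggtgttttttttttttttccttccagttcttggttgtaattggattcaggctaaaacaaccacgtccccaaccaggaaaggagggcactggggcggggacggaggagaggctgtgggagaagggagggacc
On both strands of the 250 bases before the start, 3 motifs were searched: TGANTCA, bound by AP-1 (FOS and JUN dimers), AGGAAG, bound by ETS factors, and TATAAA, the TATA box. In MMP10 the AP-1 letters TGAATCA stood at -67 to -61 and TATAAA at -31 to -26. In MMP8 TATAAA stood at -110 to -105, and the shown bases of MMP14 held none of the 3. The MMP8 window lay inside the span of MMP8 given above, so the start used was not the outermost one annotated in GENCODE. TGANTCA occurred in 6.57% of 35116 RefSeq promoters, AGGAAG in 28.7% and TATAAA in 10.7%. The MMP11 window held no match. A match describes letters and is not evidence of binding.

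Library totals on named genes ranged from 28381782 to 53837400 counts, and log2 CPM (counts scaled to libraries of equal size) correlated between libraries of a group at 0.984 to 0.993. CPM values below are scaled by TMM (edgeR's trimmed mean of M values). Markers of adipocytes were present in every group, with 10 of 12 at a mean of 1 CPM or more, and their sum was lower in KD: 3378 to 4655 CPM in scramble and 681 to 2007 in KD without LPS, and 3909 to 4522 and 549 to 1276 with LPS. Of the 12, 9 were lower in KD without LPS and 10 with LPS by the edgeR test below, and none was higher. Among all genes, 15.1% were lower without LPS and 14.2% with LPS. The study itself reported the other direction at day 14, with more adipogenic marker mRNA by qPCR, and more protein, in KD. PPARγ, FABP4 and adiponectin were among those markers, and the reason for the difference was not tested. Stromal cell or fibroblast markers, of which DLK1 was at 0, summed to 8574 to 10533 CPM in scramble and 11823 to 13771 in KD. With LPS they summed to 8541 to 9920 and 13464 to 15219 CPM. In each KD comparison 6 were higher and 3, THY1, ENG and PDGFRB, were lower. Without LPS these 3 went from means of 764, 285 and 977 CPM to 148, 111 and 523. The 6 higher there were PDGFRA, FAP and the matrix genes DCN, COL3A1, COL1A1 and LUM. DCN went from 2671 to 4904 CPM and COL3A1 from 1429 to 2046. The stromal sum is therefore no measure of the number of stromal cells. Of 10 macrophage markers, 2 reached a mean of 1 CPM, AIF1 was at 0 in every library, and the summed level was 57.5 to 72.1 CPM in scramble with or without LPS and 79.3 to 117 in KD with or without LPS. The higher sum in KD came from CD163, which went from 4.33 ± 1.12 to 68.6 ± 13.7 CPM without LPS (SD, n = 3), while CD68, the other of the 2, fell from 53.6 ± 2.76 to 31.1 ± 2.34 CPM. The 7 neutrophil markers summed to 0.173 to 1.62 CPM, with S100A9 at 0 in every library. The part of these shifts in the MMP differences was not tested.

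MMP2, MMP14 and MMP3 made up most of the MMP mRNA. Levels of different genes were compared as CPM per kb of the median annotated transcript, a scale that depends on which transcripts are expressed. In scramble, MMP2 stood at 2061 ± 65.8 CPM per kb (SD, n = 3, as for all values of this kind), MMP14 at 511 ± 44.6 and MMP3 at 183 ± 36.8. MMP19 followed at 24.5 ± 3.02, then MMP11 at 1.66 ± 0.741 and MMP1 at 1.01 ± 0.291, a pair whose ranges overlapped. MMP10 (0.169), MMP12 (0.125), MMP13 (0.0524) and MMP8 (0.0181) were lowest, and each overlapped its neighbour in this order.

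In KD the order changed at the top. MMP2 was at 2139 ± 138 CPM per kb, MMP3 at 1043 ± 67.2, MMP14 at 771 ± 67.4, MMP1 at 71.5 ± 19.9 and MMP19 at 31.02 ± 5.87, with none of these 5 overlapping its neighbour. The 10 members summed to 2783 ± 141 CPM per kb in scramble and 4061 ± 271 in KD, and to 2823 ± 177 and 4533 ± 374 with LPS. The share of MMP3 in that sum was 6.53% in scramble, 25.7% in KD, 1.81% in scramble with LPS and 22.03% in KD with LPS. The share of MMP1 was 0.0363%, 1.75%, 0.0257% and 3.56% in the same order, while that of MMP2 was 74.1%, 52.7%, 82.2% and 56.3%.

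**Figure D1:**
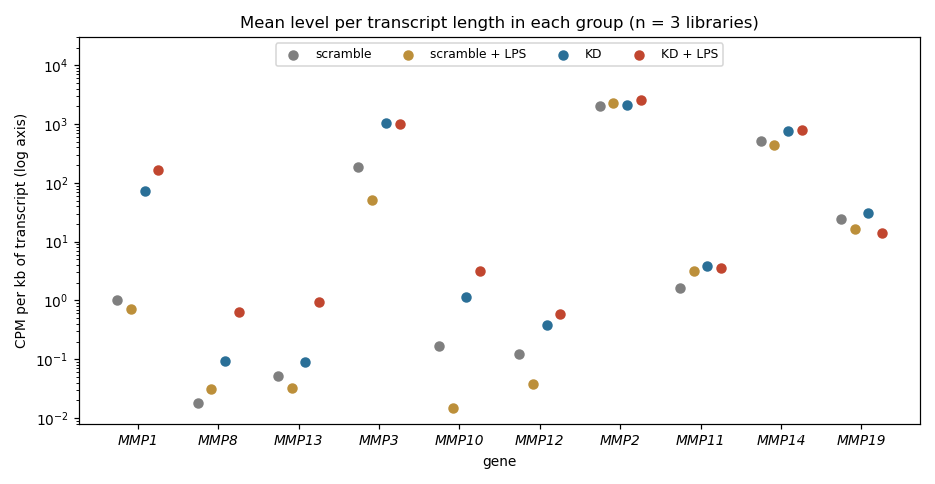
Mean level of each member in CPM per kb of median transcript length (log axis) in the 4 groups of 3 libraries. MMP2 is highest in every group, and MMP3 lies below MMP14 in both scramble groups (183 against 511 CPM per kb without LPS) and above it in both KD groups (1043 against 771 without LPS).

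The KD comparisons asked whether MMP mRNA differed between KD and scramble at rest and under LPS. Without LPS, 5 of the 10 members rose in KD and none fell (edgeR quasi-likelihood test, adjusted p under 0.05), beside 12.1% of 16217 genes that rose and 15.1% that fell. The members were chosen with earlier results of these data known. Here and in the comparisons below, their number beside such shares is therefore no test of the set. The 5 were MMP1, MMP3, MMP10, MMP11 and MMP14, and for the first 4 the change was also at least 2-fold, a call that 7.77% of all genes received. MMP8 reached the minimum of 10 counts for that test only through the KD libraries. The median log2 fold change was 1.41 for the members, MMP8 among them, and 0.024 for all genes. Nothing is read from that median for the set. With LPS, MMP1, MMP3 and MMP14 rose of the 6 members that had 10 or more counts in scramble with LPS, and MMP2, MMP11 and MMP19 did not pass. MMP8, MMP10, MMP12 and MMP13 also passed the test upward, but they held 2 to 8 counts in scramble with LPS and reached the minimum only through KD with LPS, so their number is no support for a shift of the set. Among all 15981 genes, 12.7% rose, 14.2% fell and 8.48% were called at 2-fold, and nothing is read from these shares for those 4 members. Each of the 7 but MMP14 was past 2-fold.

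**Figure D2:**
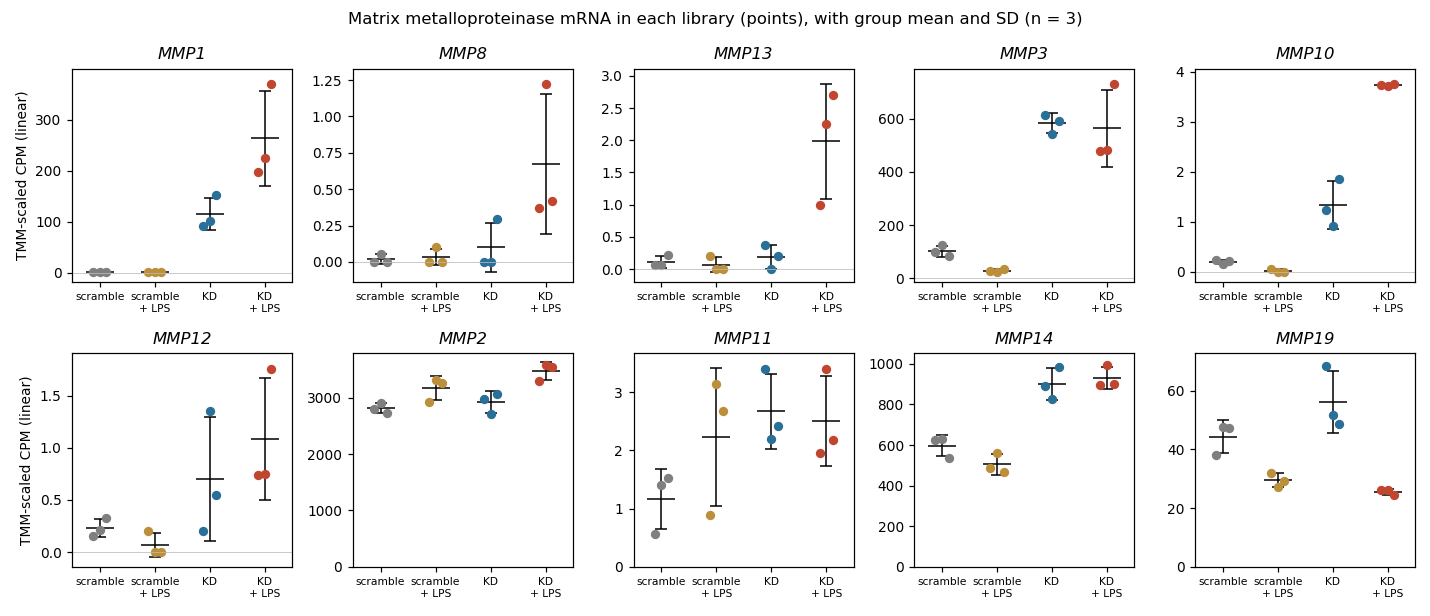
TMM-scaled CPM of each member in every library (points, linear axis from 0), with the group mean (bar) and SD (whiskers, n = 3). MMP1 and MMP3 separate KD from scramble with and without LPS, MMP10 reaches 3.72 to 3.76 CPM only in KD with LPS, and MMP2 stays between 2711 and 3583 CPM throughout.

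Among the collagenases, which cut fibrillar collagen across its triple helix, MMP1 showed the largest difference. The 3 scramble libraries held 2.07, 1.69 and 1.14 CPM of MMP1 and the KD libraries 91.7, 102 and 152 CPM. With LPS the scramble libraries held 1.43, 0.826 and 1.20 CPM and the KD libraries 197, 224 and 370 CPM. Every KD library was far above every scramble library, and KD with LPS lay wholly above KD without it. The log2 fold change of KD was 6.13 (SE 0.24, edgeR adjusted p = 2.3e-08), or 70.0-fold, without LPS and 7.81 (SE 0.28, adjusted p = 4.9e-10), or 224-fold, with LPS. In counts, this was 251 for the 3 scramble libraries together against 14817 for KD, and 132 against 27873 with LPS.

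MMP13, a collagenase best known from cartilage and bone, was near the limit of detection in all groups but KD with LPS. Its counts were 3, 3 and 10 in scramble, 8, 0 and 0 in scramble with LPS, 13, 0 and 8 in KD, and 35, 105 and 77 in KD with LPS, where it stood at 0.990, 2.26 and 2.71 CPM. KD with LPS lay above each of the other 9 libraries, which overlapped one another. Under LPS the log2 fold change of KD was 4.75 (SE 1.00, edgeR adjusted p = 0.0029), and without scramble + LPS replicate 1, which held all 8 counts of its group, it was 9.19, or 4.14 without replicate 3. Without LPS it was 0.77 (SE 1.54, adjusted p = 0.76).

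MMP8, the collagenase stored in neutrophil granules, was barely detected. Its counts were 0, 3 and 0 in scramble, 0, 3 and 0 in scramble with LPS, 0, 0 and 12 in KD, and 13, 57 and 12 in KD with LPS. The 3 libraries of KD with LPS held more than any scramble library, and 57 of their 82 counts came from 1 library. The ratio of summed counts of KD to scramble under LPS, scaled for depth, was 27.8, with a 95% interval of 9.18 to 137 that covers counting error only. The fit gave an edgeR adjusted p of 0.033, which rose to 0.19 without KD + LPS replicate 2 (log2 fold change 3.56), 0.078 without scramble + LPS replicate 1 (3.80) and 0.099 without its replicate 3 (3.77), while without its replicate 2 the log2 fold change was 7.70 (adjusted p = 0.012).

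Among the stromelysins, which cut proteoglycans, laminin and other non-fibrillar matrix proteins and can activate other proMMPs, MMP3 was by far the most abundant. Scramble libraries held 98.4, 124 and 83.6 CPM of MMP3 and KD libraries 615, 542 and 592 CPM. With LPS the values were 26.5, 23.7 and 35.4 CPM in scramble and 478, 480 and 729 CPM in KD. The KD and scramble libraries did not overlap, the KD groups overlapped each other, and scramble with LPS was below scramble. KD gave a log2 fold change of 2.52 (SE 0.13, edgeR adjusted p = 1.1e-07), or 5.73-fold, without LPS and 4.30 (SE 0.19, adjusted p = 2.6e-09), or 19.6-fold, with LPS.

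MMP10, the closest relative of MMP3, was lower by orders of magnitude and, like MMP3, had its lowest level in scramble with LPS. Its counts were 12, 8 and 10 in scramble, 2, 0 and 0 in scramble with LPS, 43, 49 and 75 in KD, and 132, 173 and 107 in KD with LPS. In CPM these were 0.228, 0.152 and 0.215, then 0.051, 0 and 0, then 1.24, 0.910 and 1.85, then 3.73, 3.72 and 3.76. No 2 of the 4 groups overlapped. The log2 fold change of KD without LPS was 2.74 (SE 0.58, edgeR adjusted p = 0.0042). With LPS it was 7.46 (SE 0.69, adjusted p = 2.8e-06), a size that rests on the 2 counts of scramble + LPS replicate 1: without that library it was 10.1, without replicate 3 of the group it was 6.87, and the ratio of summed counts was 209 with a 95% counting interval of 57.6 to 1734.

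MMP3 and MMP10 share sequence, so counts could be split between them. Of the stretches as long as an index word of kallisto, 6.91% in MMP3 and 7.11% in MMP10 also occurred in another gene, for 125 stretches each the other of the pair. MMP1 shared 5.07%, of which 137 stretches were with WTAPP1, a pseudogene on the opposite strand (chr11:102746968-102836766) that also overlaps MMP3 and MMP10. WTAPP1, looked at after its position was seen, had 7 to 22 counts per library in scramble, 0 in each scramble + LPS library, 17 to 44 in KD and 11 to 17 in KD with LPS, far fewer than MMP1 in KD.

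MMP11, stromelysin-3, is activated inside the cell by furin-type convertases and lies apart from the other stromelysins on chromosome 22. Its counts were 30, 74 and 71 in scramble and 118, 118 and 98 in KD, or a mean of 1.17 ± 0.521 and 2.67 ± 0.642 CPM (SD, n = 3). With LPS they were 35, 95 and 114 in scramble and 69, 158 and 62 in KD, or 2.23 ± 1.18 and 2.51 ± 0.778 CPM. Scaled for depth, KD lay above scramble without LPS, and the groups overlapped with LPS. The log2 fold change was 1.19 without LPS (SE 0.40, edgeR adjusted p = 0.046), and leaving out any 1 of the 6 libraries gave 0.86 to 1.42 with adjusted p from 0.052 to 0.14. With LPS it was 0.18 (95% interval -0.78 to 1.13, adjusted p = 0.83).

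MMP12, macrophage metalloelastase, cuts elastin and was low throughout. Its counts were 8, 11 and 15 in scramble, 8, 0 and 0 in scramble with LPS, 7, 73 and 22 in KD, and 26, 35 and 50 in KD with LPS. KD and scramble overlapped without LPS and did not with LPS. The log2 fold change of KD was 1.63 without LPS (SE 0.83, edgeR adjusted p = 0.17) and 3.88 with LPS (SE 1.20, adjusted p = 0.029). The latter was 8.31 without scramble + LPS replicate 1, and it lost the call without scramble + LPS replicate 2 (3.37, adjusted p = 0.066) or 3 (3.29, 0.074) and without KD + LPS replicate 2 (4.08, 0.053) or 3 (3.35, 0.13). As given above, 2 of the 10 macrophage markers reached a mean of 1 CPM.

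MMP14 (MT1-MMP) is anchored in the cell membrane, cuts pericellular collagen and activates proMMP2. It was at 625, 630 and 537 CPM in scramble and 892, 827 and 984 CPM in KD, and with LPS at 487, 562 and 465 CPM in scramble and 894, 994 and 902 CPM in KD. All 6 KD libraries were above all 6 scramble libraries. The log2 fold change was 0.60 (SE 0.088, edgeR adjusted p = 0.00035), or 1.51-fold, without LPS and 0.88 (SE 0.083, adjusted p = 3.0e-06), or 1.84-fold, with LPS.

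MMP2, gelatinase A, cuts denatured collagen and type IV collagen of basement membranes, and had the highest MMP level in these cells. Its CPM were 2800, 2914 and 2736 in scramble, 2985, 2711 and 3073 in KD, 2927, 3318 and 3266 in scramble with LPS, and 3300, 3583 and 3546 in KD with LPS. KD and scramble overlapped with and without LPS. The log2 fold change of KD was 0.058 without LPS (95% interval -0.095 to 0.21, edgeR adjusted p = 0.60) and 0.13 with LPS (-0.014 to 0.28, adjusted p = 0.18), so these intervals end well under 2-fold.

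MMP19, a secreted MMP found in many resting tissues, was at 38.04, 47.7 and 47.4 CPM in scramble and 68.4, 51.7 and 48.6 CPM in KD. With LPS it was at 31.9, 27.3 and 29.2 CPM in scramble and 26.1, 26.3 and 24.4 CPM in KD. In both shRNA groups the libraries with LPS were below those without. KD gave log2 fold changes of 0.35 without LPS (95% interval 0.054 to 0.64, edgeR adjusted p = 0.077) and -0.21 with LPS (-0.44 to 0.025, adjusted p = 0.18). MMP19 shared 15.9% of its index-length stretches with other genes, 791 of them with TMEM198B, which overlaps it on the opposite strand.

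**Figure D3:**
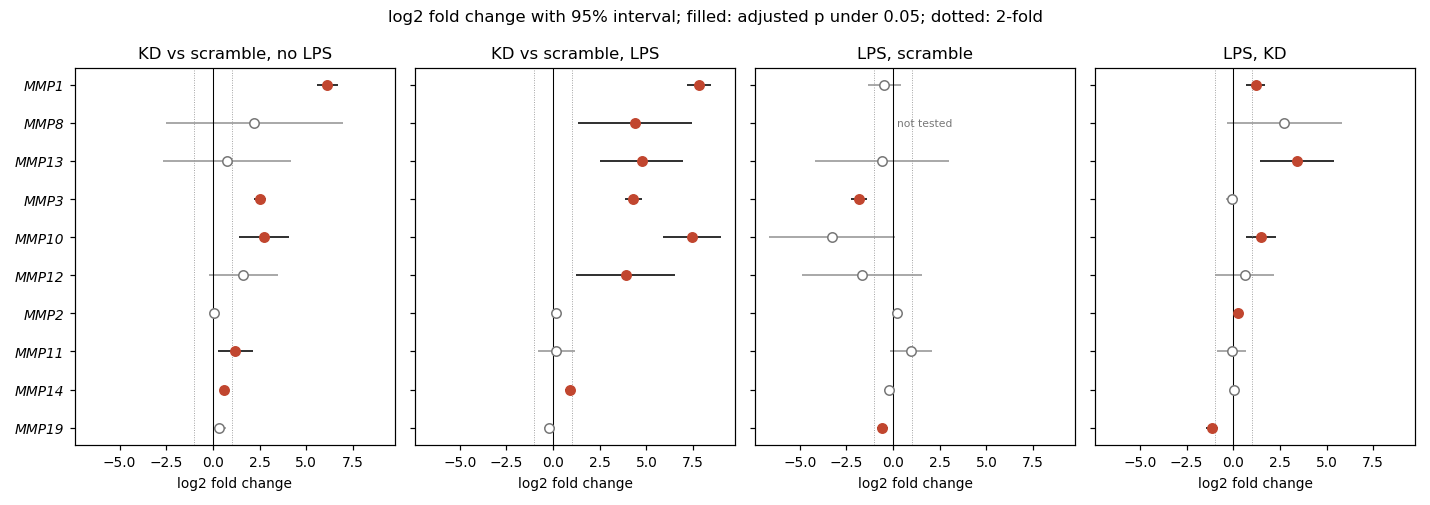
log2 fold change (point) with 95% interval (line) of each member in the 4 comparisons, filled where the edgeR adjusted p was under 0.05, with dotted lines at 2-fold. Every filled point for KD is above 0, and those of MMP8, MMP10, MMP12 and MMP13 with LPS stand on 2 to 8 counts in scramble, while LPS lowered MMP3 and MMP19 in scramble and raised MMP1, MMP2, MMP10 and MMP13 in KD. MMP8 had too few counts to be tested for LPS in scramble.

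The LPS comparisons asked how the same genes answered 4 h of LPS with each shRNA. They share libraries with the KD comparisons, so the values are given side by side and are not independent. In scramble, none of 9 members tested rose and 2 fell, MMP3 and MMP19, beside 5.9% of 15920 genes that rose and 8.38% that fell. MMP3 was called at 2-fold, as were 2.68% of all genes. In KD, MMP1, MMP2, MMP10 and MMP13 of 10 members rose and MMP19 fell, beside 5.32% of 16169 genes that rose and 6.03% that fell. All but MMP2 of these 5 were called at 2-fold, as were 2.25% of all genes. As a check of the treatment, 9 of 9 LPS response genes, such as IL6, ICAM1 and PTGS2, rose in scramble and in KD, with median log2 fold changes of 1.87 and 2.23.

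The fall of MMP3 in scramble was 3.54-fold (log2 fold change -1.82, SE 0.16, edgeR adjusted p = 1.9e-05), while in KD its log2 fold change with LPS was -0.050 (95% interval -0.33 to 0.23, adjusted p = 0.88). MMP10 went from 30 counts over the 3 scramble libraries to 2 with LPS, a depth-scaled ratio of 0.0903 (95% counting interval 0.0105 to 0.356), yet the fit of these 6 libraries gave an adjusted p of 0.19, and the fit of all 12 libraries 0.0087. In KD, MMP10 rose by a log2 fold change of 1.49 (SE 0.35, adjusted p = 0.011).

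MMP1 in scramble had a log2 fold change of -0.49 with LPS (SE 0.38, edgeR adjusted p = 0.46) and in KD it rose by 1.19 (SE 0.21, adjusted p = 0.0013). The rise in KD was 0.87, under 2-fold, without KD + LPS replicate 3, the library with 370 CPM. MMP13 rose in KD by 3.42 (SE 0.91, adjusted p = 0.024), which ranged from 2.78 without KD replicate 2 to 4.38 without KD replicate 1. The call was lost without KD replicate 3 (3.48, adjusted p = 0.055), KD + LPS replicate 2 (3.31, 0.097) or KD + LPS replicate 3 (3.12, 0.12), and in the fit of all 12 libraries (0.072).

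MMP19 fell with LPS by 0.58 on the log2 scale in scramble (SE 0.11, edgeR adjusted p = 0.0041) and by 1.13 in KD (SE 0.13, adjusted p = 2.5e-05). Without KD replicate 1, the library with 68.4 CPM, the value in KD was -0.98, just under 2-fold. MMP2 rose in KD by 0.25 (SE 0.061, adjusted p = 0.014) and had 0.18 in scramble (SE 0.076, adjusted p = 0.14). MMP14 had -0.23 in scramble (SE 0.093, adjusted p = 0.13) and 0.046 in KD (SE 0.073, adjusted p = 0.79). MMP8, MMP11 and MMP12 had LPS effects with adjusted p from 0.25 to 0.93 wherever they were tested.

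The interaction, fitted on all 12 libraries, asked whether the KD effect differed with and without LPS. MMP3 and MMP10 of the 10 members passed, both with a larger KD effect under LPS, where 1.28% of 17173 genes passed in either direction and 0.943% in this one. The difference between the log2 fold changes of KD was 1.78 for MMP3 (SE 0.23, edgeR adjusted p = 6.2e-04) and 4.76 for MMP10 (SE 0.92, adjusted p = 0.013), which was 7.57 without scramble + LPS replicate 1 and 4.17 without replicate 3. For MMP1 it was 1.68 (SE 0.41, adjusted p = 0.057). MMP13 (4.02, SE 1.71, adjusted p = 0.37), MMP14 (0.29, SE 0.13, adjusted p = 0.39) and MMP19 (-0.55, SE 0.17, adjusted p = 0.17) did not pass, nor did MMP2, MMP8, MMP11 and MMP12.

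Of the 14 other MMP genes, 7 had enough counts to be tested in each KD comparison, and in each 1 rose and 1 fell, a share near that of all genes given above. MMP24, a membrane-type MMP, rose in KD without LPS (log2 fold change 1.31, SE 0.33, edgeR adjusted p = 0.011) from 1.07 ± 0.0967 to 2.65 ± 0.618 CPM (SD, n = 3), and with LPS had 1.39 (SE 0.49, adjusted p = 0.051). MMP7, matrilysin, at the far end of the chromosome 11 run, rose in KD with LPS by 3.19 (SE 0.50, adjusted p = 0.00032), from 0.257 ± 0.107 to 2.40 ± 0.296 CPM. The membrane-type MMP17 fell in both comparisons, by 0.65 and 0.98. The list medians were -0.053 without LPS and 0.56 with LPS. The genes tested were not the same, as MMP23B was tested only without LPS and MMP20 only with LPS. MMP20 held 0 counts in scramble with LPS and 12 in KD with LPS, all in 1 library. It reached the minimum only through that library, so nothing is read from the median with LPS for the list.

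Of 6 inhibitors, 4 fell and 2 rose in KD, both without and with LPS. Among all genes, 15.1% fell and 12.1% rose without LPS, and 14.2% fell and 12.7% rose with LPS. The list was chosen with earlier results of these data known, so its count is no test of the list. All 4 TIMPs fell. TIMP3, which binds the matrix and inhibits MMPs and ADAM proteases, went from 1050.1 ± 186 CPM in scramble to 232 ± 22.4 in KD (log2 fold change -2.17, SE 0.13, edgeR adjusted p = 2.3e-07) and from 479 ± 72.8 to 104 ± 8.80 with LPS (-2.20, SE 0.11, adjusted p = 7.2e-09). TIMP3 also fell with LPS, by 1.12 in scramble and 1.16 in KD. TIMP1 fell by 0.45 and 0.62, TIMP2 by 0.52 and 0.37, and TIMP4 by 0.72 and 1.06, without and with LPS. A2M, a broad protease trap, rose from 31.2 ± 10.4 to 182 ± 16.8 CPM without LPS and from 26.5 ± 2.81 to 198 ± 15.0 with LPS (log2 fold changes 2.55 and 2.90). RECK, a membrane-anchored MMP inhibitor, rose by 0.49 and 0.93, and its interaction passed (0.45, SE 0.10, adjusted p = 0.034). The list medians were -0.48 and -0.50.

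The genes that govern proMMP activation moved in both directions. Of 9, 3 rose and 3 fell in KD without LPS, and 2 rose and 4 fell with LPS. The shares of all genes were 12.1% up and 15.1% down without LPS, and 12.7% up and 14.2% down with LPS. PLAU, the urokinase that makes plasmin, fell from 118 ± 14.1 to 24.2 ± 0.964 CPM without LPS (log2 fold change -2.28, SE 0.10, edgeR adjusted p = 6.4e-08) and from 53.4 ± 8.07 to 16.0 ± 3.47 with LPS (-1.74). PLAT, tissue plasminogen activator, rose by 0.84 and 1.71, and its interaction passed (0.88, SE 0.19, adjusted p = 0.030). With LPS, PLAUR, the urokinase receptor, fell by 1.40 in scramble and 1.10 in KD.

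Of 19 genes for MMP substrates and other matrix proteins, 4 rose and 12 fell in KD, both without and with LPS. Among all genes, 12.1% rose and 15.1% fell without LPS, and 12.7% rose and 14.2% fell with LPS. Both lists of this paragraph were chosen with earlier results known, so their counts are no test of them. ACAN, the proteoglycan aggrecan, rose from 0.525 ± 0.0453 to 12.1 ± 2.94 CPM without LPS (log2 fold change 4.52, SE 0.25, edgeR adjusted p = 1.5e-07) and from 0.0707 ± 0.0851 to 8.10 ± 2.76 CPM with LPS. COL1A1 rose by 0.66 and 0.77, COL3A1 by 0.52 and 0.57 and DCN by 0.88 and 1.31, without and with LPS. The type IV collagen chains of the basement membrane fell, COL4A1 by 1.54 and 1.90 and COL4A2 by 1.45 and 1.80. COL18A1, the collagen that releases endostatin, fell by 2.74 and 1.71. The list medians were -0.41 and -0.52. Of 7 collagen receptors and uptake receptors, none rose in KD, while 2 fell without LPS and 4 with LPS, none by 2-fold. ITGA2, a collagen-binding integrin chain, fell with LPS by 1.48 in scramble and 2.01 in KD.

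Of 16 genes for factors known to act on MMP promoters, 9 rose in KD without LPS and 1 fell, and with LPS 9 rose and 2 fell. Among all genes, 12.1% rose and 15.1% fell without LPS, and 12.7% rose and 14.2% fell with LPS. This list too was chosen with earlier results known, so its count is no test of it. FOS and FOSB, which form AP-1 with JUN proteins, rose without LPS by 1.56 (SE 0.19, edgeR adjusted p = 7.1e-05) and 1.40 (SE 0.15, adjusted p = 3.3e-05). ATF3 rose by 1.16 and 1.37 and ETS2 by 1.13 and 1.35 without and with LPS. ETS1 rose by 0.52 without LPS and 1.35 with LPS, and its interaction passed (0.84, SE 0.13, adjusted p = 0.0024). NFKB1 rose with LPS by 1.29 in scramble and 1.67 in KD. FOSL1, another FOS-family member of AP-1, fell from 753 ± 63.2 to 442 ± 47.5 CPM without LPS (-0.76, SE 0.094, edgeR adjusted p = 8.3e-05) and by 0.81 with LPS. The list medians were 0.35 in both KD comparisons. The AP-1 letters in the MMP10 promoter printed above are a match only, and binding was not measured.

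**Figure D4:**
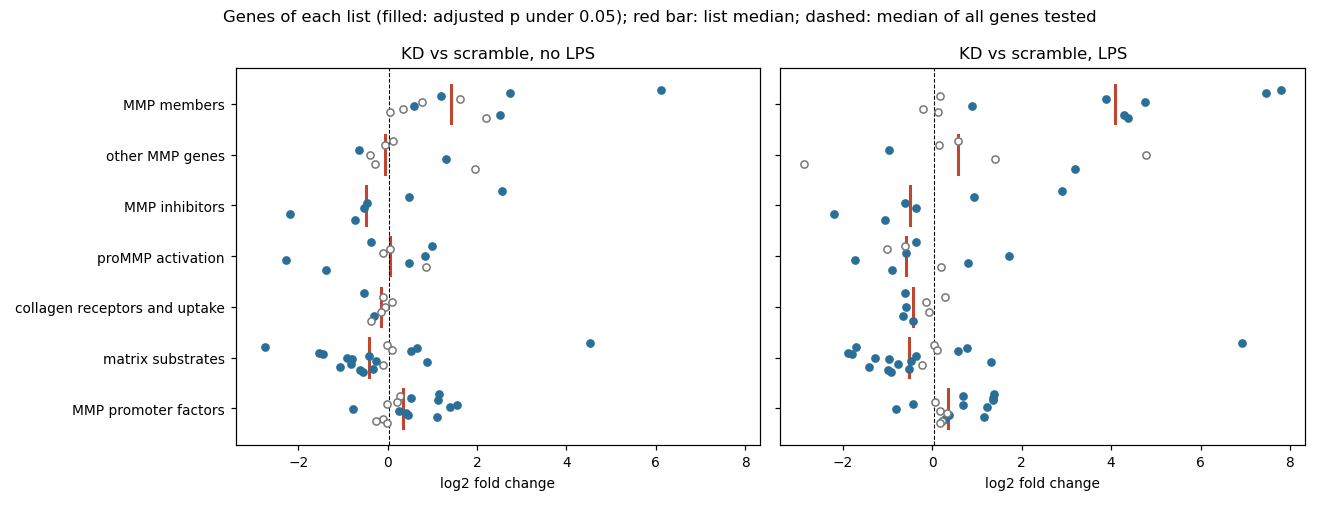
log2 fold change of KD for the genes of each list (points, filled where the edgeR adjusted p was under 0.05) without LPS and with LPS, with the list median (red bar) and the median of all genes tested (dashed). The MMP members have a median of 1.41 without LPS, which takes in MMP8, tested there only through the KD libraries. With LPS 4 of their points stand on 2 to 8 counts in scramble. The inhibitors have medians of -0.48 and -0.50 and the matrix substrates -0.41 and -0.52, where all genes have 0.024 and 0.025.

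The genes whose pattern over the 12 libraries was most like that of a member were ranked by the root mean square difference of log2(CPM + 0.5), centred per gene, among 11811 genes. MMP1 was nearest to ZNF385B (0.38) and SAMSN1 (0.60), where its own root mean square deviation was 3.30. MMP3 was nearest to LBH (0.40) and ACKR4 (0.50), with 1.83 of its own, and MMP10 to IL19 (0.28) and LUM (0.36), with 1.20 of its own. MMP10 averaged 0.198 CPM in scramble and 0.017 in scramble with LPS, below the added 0.5, which flattens its differences there. LUM had a log2 fold change of -0.0030 for LPS in scramble, where MMP10 went from 30 counts to 2. MMP14 was nearest to SPNS1 (0.099) and FAM20C (0.10), and MMP19 to CMTM7 (0.17) and SINHCAF (0.19). The measure is a description over libraries that share their groups, and it says nothing of shared control.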

How the data were processed

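RNA was sequenced from 12 libraries in 4 groups of 3. The authors demultiplexed with bcl2fastq 2.19 and pseudoaligned to GRCh38 transcripts with kallisto 0.44.0, per the submitters' processing notes, which also name DESeq2 1.32.0. The deposited estimated counts, per gene name, are whole numbers, not normalised for depth or length. The annotation release and strand setting are not given in the sources used here. A row without a gene name (0.235% to 0.306% of counts) was left out. Library totals were 28381782 to 53837400 counts, so genes with few counts were imprecise.

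In R 4.3.3, counts were rounded, genes under 10 counts in total within a fit were dropped, and edgeR 4.0.16 (TMM, quasi-likelihood F test, Benjamini-Hochberg over all genes) compared groups on 6 libraries each, with the interaction on all 12. A call needed an adjusted p under 0.05 and 2-fold, or the adjusted p alone for the interaction. SE is the log2 fold change over the square root of F. The steps were tested on simulated data. Levels per length used GENCODE 44. All members were named, and from each other list up to 4 called genes with the largest change per comparison, or those that explain a count. The values of 1 listed gene are not reported here. Members and lists were chosen with earlier results of these data known. Alternatives were DESeq2 1.42.0, other scalings and filters, a fit of all 12 libraries, a block for replicate number, and leaving out each library.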

Additional observations from a re-analysis of the deposited data

Results flagged for a closer look

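For MMP10 and MMP3 the effect of linc-ADAIN KD differed with and without LPS by the interaction test. The difference between the log2 fold changes of KD was 4.76 for MMP10 and 1.78 for MMP3. In MMP10 the scramble + LPS group held 2 counts in all.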

How the results depend on the processing

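Over 321 values recomputed with another tool, scaling, filter or fit, 312 kept their direction and side of the threshold, 4 lost it, 4 gained it and 1 reversed, and of 353 values with 1 library left out 319 kept both. Members called numbered 4 for KD without LPS, 6 for KD with LPS, 1 for LPS in scramble, 4 for LPS in KD and 2 for the interaction. Among all genes, 7.77%, 8.48%, 2.68%, 2.25% and 1.28% were called in the same order. The 6 take in MMP8, MMP10, MMP12 and MMP13, which reached the minimum of 10 counts only through KD with LPS. Their number is therefore no support for a shift of the set. LPS in scramble gave 2 in the fit of all 12 libraries and 2 by adjusted p alone. With 1 library left out, the counts were 3 for KD without LPS in each case, 4 to 6 for KD with LPS, 1 for LPS in scramble, 2 to 4 for LPS in KD and 2 to 3 for the interaction. Same-numbered libraries correlated at -0.115 to 0.271 and share only a number, and with the replicate block the counts were 3, 6, 1, 4 and 3 in the same order. MMP11 without LPS lost its call in that block (adjusted p = 0.073) and in the fit of all 12 libraries (0.064), where MMP8 in KD with LPS (0.093) did too. The MMP1 interaction passed with DESeq2 (edgeR adjusted p 0.057, DESeq2 0.019), with no count filter (0.00037) and with the block (0.014). With library size only, the MMP14 effect of LPS in KD was -0.0047, and the median of all genes was 0.13 for KD without LPS and 0.11 with LPS. Leaving out 1 library reversed values that did not pass the test: MMP11 ranged from -0.20 to 0.49 for KD with LPS and from -0.36 to 0.12 for LPS in KD, MMP13 from -0.18 to 1.67 for KD without LPS and from -5.32 to 0.29 for LPS in scramble, MMP14 from -0.020 to 0.11 and MMP3 from -0.28 to 0.055 for LPS in KD, and MMP8 from -0.70 to 7.25 for the interaction. Per kb of the longest transcript, the scramble level was 801.5 for MMP2, 56.0 for MMP3, 0.113 for MMP10, 0.305 for MMP11, 155 for MMP14 and 11.6 for MMP19, which puts MMP1 above MMP11 and MMP12 above MMP10. Apart from settings that use fewer libraries or genes, the cause of these shifts was not tested. Depth limits MMP8, MMP10, MMP12 and MMP13, which had at most 15 counts in every scramble library.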
